A study of Mus musculus with 18 samples.

Results

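The interferon response and MHC class I genes are 48 genes taken from a fixed list by name and read in both deposited count tables, out of 46983 gene names in each. All 48 names were found in both tables. They were divided by role into 36 interferon genes (5 transcription factors, 5 sensors of viral RNA and their regulators, 12 antiviral effectors, 2 genes of the ISG15 system, 3 guanylate binding proteins and 9 other interferon-induced genes) and 12 class I genes (5 chains, 3 genes of peptide transport and loading, and 4 genes of the immunoproteasome and its activator). Membership was set by name and role and by no cutoff on a value, though with earlier results of these data known.

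The RNA was taken from male mice of the inbred strain C57BL/6J, whose H-2 type is b, and from 2 sources, bone marrow and adipose tissue. The marrow titles read mBMSC and the adipose titles mAT-MSC VAT. Every description carries HFD, and the arms differ in treatment, given as none or as glutamine, so that each tissue had 4 HFD libraries and 5 HFD + glutamine libraries, 18 in all. The labels give no age, dose or duration, and do not explain the pair of numbers in each name. They also do not state separate animals for the libraries within an arm, so a p-value here reflects sample-to-sample spread alone, part or all of which may be technical.

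Interferons bind cell-surface receptors and signal through JAK kinases to STAT and IRF transcription factors, which switch on a large set of antiviral genes. Most nucleated cells, stromal cells included, display peptides of their own proteins on MHC class I molecules, each made of a heavy chain and beta-2 microglobulin. The peptides are cut by the proteasome, carried into the endoplasmic reticulum by the TAP transporter and loaded with the help of tapasin, and interferon raises most genes of this route together with the transactivator NLRC5.

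The regulatory DNA of these genes is known for short elements that interferon-activated factors and NLRC5 complexes bind. As examples 6 promoters are shown, chosen after values were seen. The sequences are the 250 bases before the annotated start, read 5′ to 3′ on the gene's strand, from RefSeq on GRCm38.p6. This start lay inside the gene as annotated by GENCODE, 364 bases past its start in H2-D1, 154 in H2-T23 and 57 in Irf7. Distances below are from the RefSeq start. Capitals mark letters that match the core of the interferon-stimulated response element (GAAANNGAA), the gamma-activated site (TTCNNNGAA) or the X2 box of class I promoters (TGACGC), each searched on both strands. H2-T23 lies at chr17:36032702-36032951 on the minus strand, Irf7 at chr7:141266425-141266674 on the minus strand, Isg15 at chr4:156200819-156201068 on the minus strand, H2-K1 at chr17:34000348-34000597 on the minus strand, H2-D1 at chr17:35262844-35263093 on the plus strand and B2m at chr2:122147437-122147686 on the plus strand.
H2-T23: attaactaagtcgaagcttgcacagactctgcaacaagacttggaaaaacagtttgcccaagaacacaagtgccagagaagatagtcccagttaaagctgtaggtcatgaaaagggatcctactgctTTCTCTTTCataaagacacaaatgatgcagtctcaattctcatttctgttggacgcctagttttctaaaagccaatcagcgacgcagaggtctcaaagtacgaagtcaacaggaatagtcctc
Irf7: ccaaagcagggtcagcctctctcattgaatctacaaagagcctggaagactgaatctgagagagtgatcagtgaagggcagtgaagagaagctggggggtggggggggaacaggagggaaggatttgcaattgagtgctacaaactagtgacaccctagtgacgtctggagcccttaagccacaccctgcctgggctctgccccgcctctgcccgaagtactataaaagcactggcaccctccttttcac
Isg15: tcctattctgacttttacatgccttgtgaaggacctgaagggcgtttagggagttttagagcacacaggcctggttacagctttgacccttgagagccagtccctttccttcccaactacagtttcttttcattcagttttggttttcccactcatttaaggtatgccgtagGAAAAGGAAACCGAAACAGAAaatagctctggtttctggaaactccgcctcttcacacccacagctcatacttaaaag
H2-K1: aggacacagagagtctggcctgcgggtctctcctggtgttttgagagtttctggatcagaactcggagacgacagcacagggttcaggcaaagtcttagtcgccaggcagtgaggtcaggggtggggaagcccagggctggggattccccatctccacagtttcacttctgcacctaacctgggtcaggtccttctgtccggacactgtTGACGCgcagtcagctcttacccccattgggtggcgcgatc
H2-D1: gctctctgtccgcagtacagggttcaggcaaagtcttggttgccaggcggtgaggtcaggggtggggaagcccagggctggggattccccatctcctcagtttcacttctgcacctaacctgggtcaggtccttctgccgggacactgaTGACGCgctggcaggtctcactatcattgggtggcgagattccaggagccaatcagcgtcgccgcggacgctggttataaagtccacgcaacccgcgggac
B2m: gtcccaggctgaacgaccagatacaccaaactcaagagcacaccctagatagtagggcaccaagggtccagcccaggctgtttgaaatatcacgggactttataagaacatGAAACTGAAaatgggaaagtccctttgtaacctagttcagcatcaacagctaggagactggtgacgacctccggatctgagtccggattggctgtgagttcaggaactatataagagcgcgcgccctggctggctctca

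Isg15 held 3 overlapping matches to the response element core, the first base of each lying 78, 72 and 66 bases before the start. H2-T23 held the core on the other strand, 123 bases before the start, and B2m held it 139 bases before the start. The X2 letters lay 41 bases before the start of H2-K1 used here, 55 bases before its other listed start, and farther out in H2-D1. The Irf7 stretch held none of these letters, and neither did the stretch listed for Tapbp, which is not shown. Promoters of 300 bases (250 before and 50 after the start) were listed for 37 of the 48 members, and the response element core was found in 20 of these 37, in 17 of the 26 interferon genes and 3 of the 11 class I genes, against 9.76% of all 27025 genes with a listed promoter (8.56% of 32851 promoters of that length, since a gene can have several). The gamma-activated core was found in 8 of 37 members against 9.55% of all genes (8.30% of promoters), and the X2 core in 5 of 37 (H2-D1, H2-K1, H2-Q4, Psme2 and Rsad2) against 8.37% of all genes (7.40% of promoters). A match describes letters and is not a measured site.

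The libraries were 3′ tag libraries, in which a read counts the end of a transcript, so CPM (a gene's count over the library's total count, times 1000000) can be set side by side between genes without length correction. Depth ran from 35871168 to 59529238 counts per library in adipose and from 13970788 to 37984603 in marrow. At least 100 counts, used here as the mark of a well-measured gene, were reached by 11361 to 14469 genes in an adipose library but by 1755 to 7323 in a marrow library. Summed mesenchymal markers reached 31303 to 47321 CPM in adipose and 65730 to 297129 CPM in marrow, and neutrophil markers 2699 to 54234 CPM in marrow. Some adipose libraries stood apart in marker levels. HFD 23+28 had 1378 CPM of leukocyte markers against 589 to 654 CPM in the other HFD libraries. Glutamine 25+27 had 2.77 CPM of mesothelial markers against 437 to 617 CPM in the other glutamine libraries. HFD 5+11 had 17825 CPM of erythroid markers against 3267 to 5791 CPM in the other HFD libraries. Below, HFD 23+28 and glutamine 25+27 are left out together, a choice made after the data were seen.

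In adipose the members were read in nearly every library, and 3 class I chains stood far above the rest. Averaged over the 9 libraries, B2m (beta-2 microglobulin) reached 1799 ± 279 CPM (SD, n = 9), H2-K1 676 ± 109 CPM and H2-D1 523 ± 89.4 CPM, the last 2 being the classical heavy chains of this strain. The chains made up 57.5% to 65.7% of the CPM of all 48 members in a library. Next came Irf1, an interferon-induced transcription factor, at 227 ± 49.8 CPM, Ifi27 at 205 ± 23.4 CPM, the loading factor Tapbp at 194 ± 50.4 CPM and Psme1, a subunit of the proteasome activator, at 134 ± 26.4 CPM. The interferon genes together summed to 1242 to 1777 CPM and the class I genes to 2991 to 4390 CPM. Of the 432 member values in adipose, 374 were 100 counts or more, and 32 of the 48 members reached 100 counts in all 9 libraries. The lowest were Oas3, which reached 100 counts in no adipose library, and Oas1a, which reached it in 2. Both are synthetases of the RNase L pathway, and neither passed the filter on low counts in adipose.

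**Figure D1:**
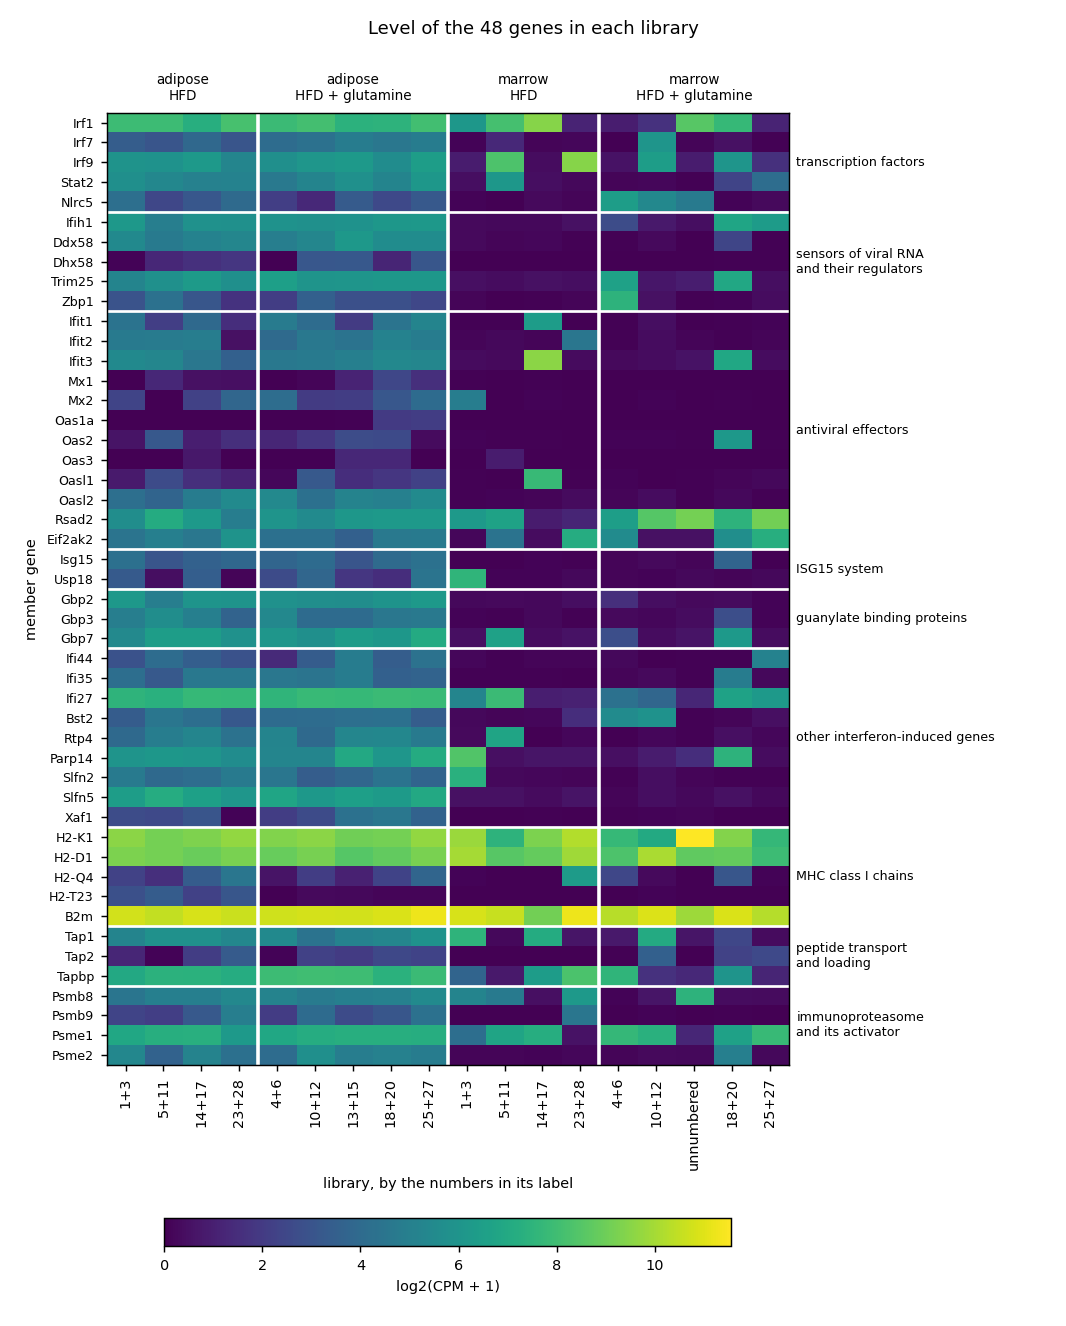
Level of each of the 48 genes (rows, by role) in each of the 18 libraries (columns, by the pair of numbers in the label) as log2(CPM + 1), with lighter colours for higher levels. The 9 adipose libraries are filled in nearly every row, whereas in the 9 marrow libraries H2-K1, H2-D1 and B2m form the steady bright rows and most other members are bright in a few libraries only.

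The first comparison asked which members differed with glutamine in adipose, where the 9 libraries were fitted alone. No member passed an adjusted p of 0.05 in edgeR's quasi-likelihood test, and neither did any other of the 15114 genes tested (0% called). At an unadjusted p under 0.05 there were 3 of the 46 members tested, against 4.13% of all genes: the class I chain H2-T23, which was lower with glutamine, and the factor Irf7 and the loading gene Tapbp, which were higher. Arms that did not overlap in CPM were found for 2 members, H2-T23 and Irf7, against 1.66% of all genes. DESeq2 called 1 member, H2-T23, against 0.205% of all genes, and limma-voom called none.

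H2-T23 encodes the heavy chain of Qa-1, a nonclassical class I molecule that presents signal peptides of other class I chains to receptors of natural killer cells. The gene lies at chr17:36029773-36032855 on the minus strand (GRCm38) and is protein coding. It held 328, 335, 194 and 346 counts in HFD libraries 1+3, 5+11, 14+17 and 23+28, which is 6.07, 9.34, 3.76 and 7.62 CPM. The glutamine libraries 4+6, 10+12, 13+15, 18+20 and 25+27 held 0, 13, 10, 5 and 6 counts, at most 0.218 CPM. All 5 glutamine libraries lay far below all 4 HFD libraries. The log2 fold change was -5.70 ± 1.43 (SE), with an unadjusted p of 0.00143 and an adjusted p of 1.00 in edgeR. The DESeq2 estimate was -5.74 ± 1.07 with an adjusted p of 0.000207, and over all alternatives the adjusted p ran from 0.000207 to 1.00. Without HFD library 23+28 and glutamine library 25+27 the edgeR value was -5.63 ± 1.76.

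H2-T23 overlaps A930015D03Rik on the opposite strand, and the strand setting of the counting is not given in the sources used here. A930015D03Rik ran from 0.0194 to 6.02 CPM in the HFD arm and from 0.0780 to 4.17 CPM in the glutamine arm, so its arms overlapped. The neighbouring chain gene H2-T22, in the same cluster, held 128 to 2024 counts in the HFD libraries and 380 to 1487 in the glutamine libraries, and H2-T24 held 0 to 78 and 0 to 373 counts. Neither neighbour was apart between the arms. The part of the overlapping gene in the H2-T23 values was not tested.

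Irf7, the factor that amplifies type I interferon production and that is itself induced by interferon, was measured at 9.59, 7.16, 13.8 and 7.29 CPM in the 4 HFD libraries. The 5 glutamine libraries gave 16.0, 19.0, 28.3, 22.8 and 27.7 CPM. Every glutamine library lay above every HFD library, and each value rested on 257 counts or more. The log2 fold change was 1.26 ± 0.45 with an unadjusted p of 0.0151 and an adjusted p of 1.00 in edgeR. It ranged from 1.07 to 1.47 over the alternatives and was called in none of them. Irf7 meets Phrf1 on the opposite strand, and Phrf1 ran from 46.2 to 50.4 CPM in the HFD arm and from 31.8 to 61.3 CPM in the glutamine arm, overlapping.

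Tapbp encodes tapasin, which holds empty class I molecules at the TAP transporter. Its HFD libraries gave 124, 170, 164 and 142 CPM and its glutamine libraries 238, 254, 251, 165 and 234 CPM. Only glutamine library 18+20 lay within the HFD range. The log2 fold change was 0.59 ± 0.19, with an unadjusted p of 0.00856 and an adjusted p of 1.00 in edgeR, and it ranged from 0.38 to 0.69 over the alternatives. Tapbp overlaps Zbtb22 on the same strand, which ran from 14.4 to 34.9 CPM with HFD and from 18.0 to 42.5 CPM with glutamine.

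**Figure D2:**
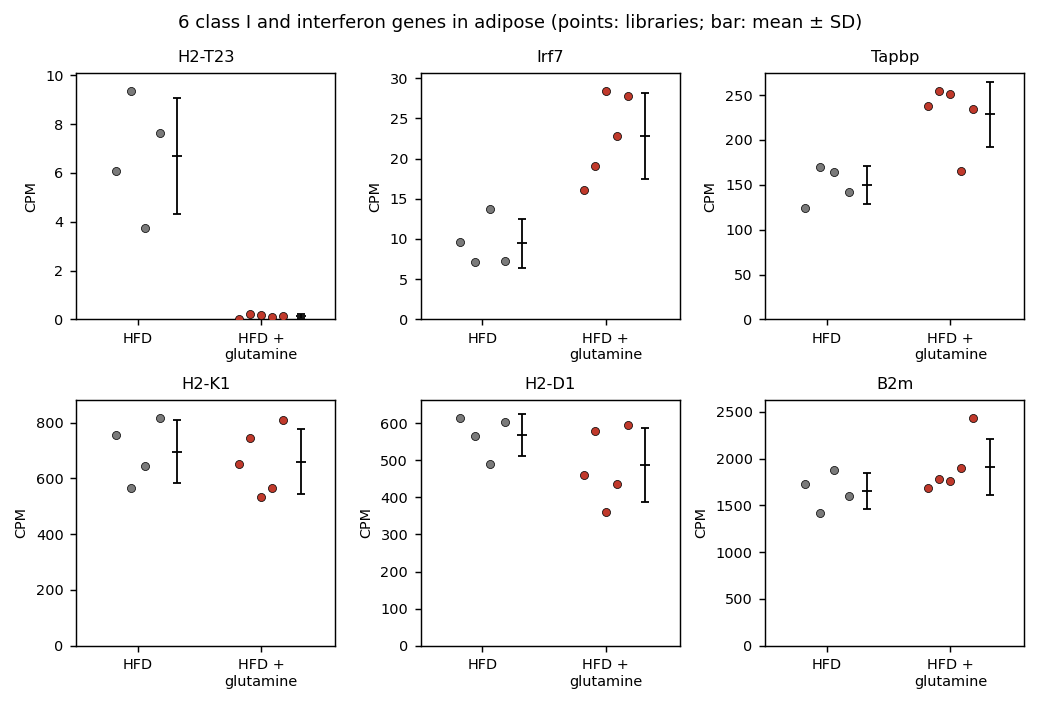
CPM of 6 members in the adipose libraries, with 1 point per library (grey HFD, red HFD + glutamine) and the mean ± SD beside them, on axes that start at 0. The arms of H2-T23 and of Irf7 do not overlap, Tapbp overlaps in 1 glutamine library, and H2-K1, H2-D1 and B2m overlap.

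The chains that carry the bulk of class I expression were measured narrowly and did not pass. B2m gave 1733, 1423, 1876 and 1603 CPM with HFD and 1682, 1784, 1760, 1896 and 2438 CPM with glutamine, for which edgeR's log2 fold change was 0.19 (95% interval -0.12 to 0.49). H2-D1 gave 615, 564, 489 and 604 CPM with HFD and 462, 579, 361, 435 and 596 CPM with glutamine, for which it was -0.25 (95% interval -0.60 to 0.11). H2-K1 ran from 566 to 818 CPM with HFD and from 533 to 808 CPM with glutamine, with a 95% interval from -0.44 to 0.25. The ratio of the 2 heavy chains to B2m was 0.769 ± 0.119 (SD, n = 4) in the HFD arm and 0.603 ± 0.0979 (SD, n = 5) in the glutamine arm, and the ranges, 0.604 to 0.887 and 0.508 to 0.743, overlapped. H2-Q4, a nonclassical chain, was lower and more scattered, with 69 to 1001 counts with HFD and 23 to 591 counts with glutamine.

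The other genes of the class I route were mixed. Tap1, 1 of the 2 subunits of the peptide transporter, gave 36.2, 57.0, 56.7 and 40.0 CPM with HFD and 43.9, 20.1, 34.3, 38.8 and 57.6 CPM with glutamine, a log2 fold change of -0.30 ± 0.32. Tap2, the other subunit, was measured at 0.0836 to 8.94 CPM and 0.0716 to 4.72 CPM. Psme1 gave 118, 153, 154 and 75.5 CPM with HFD and 116, 140, 153, 151 and 147 CPM with glutamine. Psme2, its partner in the ring that opens the proteasome, gave 39.9, 11.4, 35.5 and 18.3 CPM with HFD and 16.2, 53.7, 28.4, 32.9 and 27.7 CPM with glutamine. The inducible catalytic subunits Psmb8 and Psmb9 ran from 21.4 to 41.6 CPM and from 3.48 to 29.3 CPM with HFD, and from 26.9 to 45.0 CPM and from 3.15 to 19.0 CPM with glutamine. All of these arms overlapped. Of the 12 class I genes 5 had a positive and 7 a negative log2 fold change, with a median of -0.13 against -0.02 for all genes tested.

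Of the interferon genes, 25 of the 34 tested had a positive log2 fold change with glutamine in adipose, with a median of 0.20, while 48.6% of all genes were positive. Over all 46 members 30 were positive, with a median of 0.14. Relative to the median of all genes the members' median was 0.15, and it was 0.17 with all 18 libraries fitted together and 0.03 without HFD library 23+28 and glutamine library 25+27, where 27 of 47 were positive.

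Irf1, the highest of the transcription factors, gave 241, 241, 149 and 290 CPM with HFD and 232, 273, 172, 178 and 269 CPM with glutamine, a log2 fold change of -0.06 ± 0.23. Nlrc5, the transactivator of class I genes, gave 17.8, 4.52, 7.71 and 14.8 CPM with HFD and 3.48, 1.51, 8.85, 4.95 and 8.47 CPM with glutamine, a log2 fold change of -1.06 ± 0.78. Among the sensors, Trim25, the ubiquitin ligase that activates RIG-I, gave 35.6, 55.1, 77.0 and 52.3 CPM with HFD and 91.3, 62.4, 64.6, 68.0 and 67.6 CPM with glutamine. Ddx58, which encodes RIG-I, gave 43.3, 25.1, 33.8 and 39.1 CPM with HFD and 30.1, 38.5, 70.9, 48.3 and 48.6 CPM with glutamine. Their log2 fold changes of 0.35 ± 0.26 and 0.40 ± 0.31 were little larger than their standard errors, and the arms of both overlapped.

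Among the antiviral effectors, Eif2ak2, the kinase PKR that halts translation on double-stranded RNA, gave 21.1, 30.3, 23.0 and 59.6 CPM with HFD and 18.3, 18.1, 10.6, 24.8 and 25.7 CPM with glutamine. Its log2 fold change was -0.81 ± 0.42 with an unadjusted p of 0.0738 in edgeR. Ifit1, which binds foreign RNA ends, gave 20.3, 3.48, 14.6 and 1.85 CPM with HFD and 26.6, 15.9, 3.00, 20.7 and 35.6 CPM with glutamine, a log2 fold change of 1.01 ± 0.78. Rsad2, the highest effector, gave 49.1, 138, 73.0 and 28.6 CPM with HFD and 61.3, 45.0, 67.7, 76.4 and 75.1 CPM with glutamine. All 3 pairs of arms overlapped, and 7 of the 10 effectors tested had positive values, from 0.11 for Ifit3 to 1.38 for Mx1. Mx1, a dynamin-like antiviral protein whose allele in most inbred strains is defective, reached at most 213 counts in any library.

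Isg15, a ubiquitin-like modifier, gave 18.2, 7.22, 10.9 and 13.7 CPM with HFD and 12.6, 15.2, 7.31, 14.9 and 18.6 CPM with glutamine, a log2 fold change of 0.11 ± 0.53. Usp18, the enzyme that removes Isg15 and dampens receptor signalling, gave 471, 13, 509 and 5 counts with HFD and 216, 782, 129, 90 and 996 counts with glutamine. Neither gene separated the arms. The guanylate binding proteins, GTPases that attack vacuoles of pathogens, gave log2 fold changes of 0.06 ± 0.27 (Gbp2), -0.37 ± 0.45 (Gbp3) and 0.22 ± 0.30 (Gbp7). Gbp7 was the highest of the 3, at 42.8, 85.8, 85.4 and 57.1 CPM with HFD and 65.9, 52.7, 82.6, 67.5 and 131 CPM with glutamine, and Gbp3 gave 30.0, 49.5, 30.9 and 11.7 CPM against 41.3, 15.4, 15.3, 23.0 and 24.6 CPM.

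Of the other interferon-induced genes, 7 of 9 had positive values and none an unadjusted p under 0.05 in edgeR. Xaf1, a gene tied to cell death, gave 5.48, 4.88, 7.26 and 0.0661 CPM with HFD and 3.24, 5.31, 18.8, 22.9 and 11.6 CPM with glutamine, a log2 fold change of 1.47 ± 1.03. HFD library 23+28, with 3 counts, lay far below the other HFD libraries. Parp14, an ADP-ribosyltransferase, was evenly measured with HFD at 61.6, 68.6, 64.4 and 47.6 CPM but scattered with glutamine at 37.4, 37.5, 124, 65.4 and 136 CPM. Ifi27, the highest gene of this role, gave 183, 162, 215 and 205 CPM with HFD and 185, 221, 216, 234 and 224 CPM with glutamine, a log2 fold change of 0.16 ± 0.16.

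**Figure D3:**
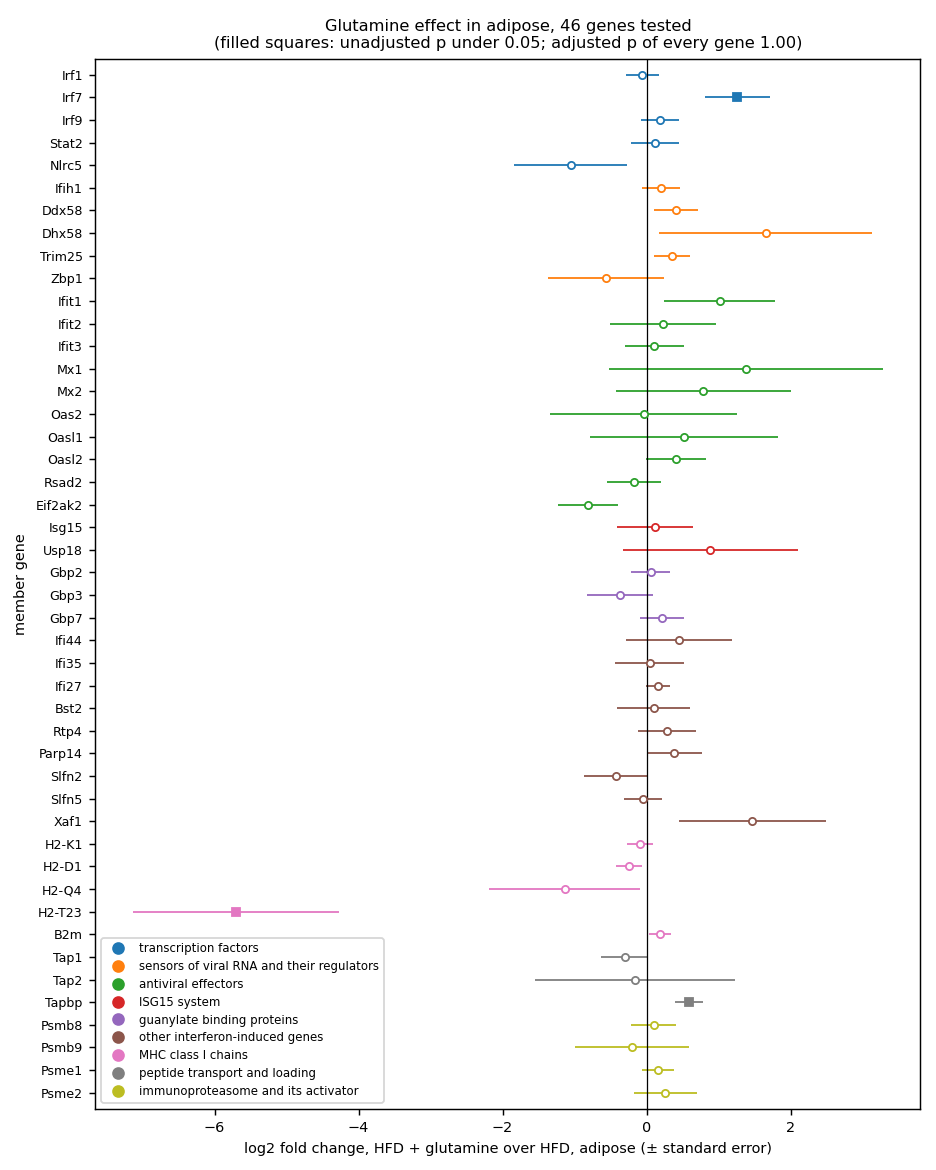
Log2 fold change of HFD + glutamine over HFD in adipose for the 46 members tested (rows, coloured by role), with bars of 1 standard error and filled squares where the unadjusted edgeR p was under 0.05. H2-T23 lies at -5.70, Irf7 at 1.26 and Tapbp at 0.59, and the bars of most other members reach or nearly reach 0.

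The neighbouring lists of the pathway gave no calls in adipose either. Of 17 interferon ligands and related cytokines only Il18, Ifng and Il15 passed the filter, with log2 fold changes of 0.60 ± 0.45, -0.98 ± 1.17 and -0.32 ± 0.83. Of 19 receptor and signalling genes tested 15 were negative, with a median of -0.17, and 1 had an unadjusted p under 0.05 in edgeR: Irf8, a factor of myeloid cells, at 76.9 to 125 CPM in the HFD libraries and 20.6 to 90.9 CPM in the glutamine libraries (log2 fold change -0.79 ± 0.35, unadjusted p = 0.0400, adjusted p = 1.00). The feedback inhibitor Socs1 of the same list had -1.30 ± 0.74. Of 47 further interferon-induced genes 31 were positive, with a median of 0.32, led by Sp100 (0.38 ± 0.21), Gbp9 (1.09 ± 0.63) and Cmpk2 (0.65 ± 0.39). The 15 nucleic acid sensing genes tested had a median of -0.01 and the 18 further class I chains and assembly genes a median of 0.00. Of the 14 constitutive proteasome core genes 11 were negative, with a median of -0.20, and Psma3 (-0.68 ± 0.26) and Psma2 (-0.52 ± 0.21) had unadjusted p values of 0.0192 and 0.0248 in edgeR, with adjusted p values of 1.00.

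Markers of leukocytes, which also express many members, were measured in the same libraries, and none passed the adjusted threshold in edgeR, where 4 of the 10 leukocyte and 5 of the 12 macrophage markers had an unadjusted p under 0.05. The 10 leukocyte markers summed to 589 to 1378 CPM with HFD and to 308 to 623 CPM with glutamine, ranges that overlapped, and all 10 had negative log2 fold changes. All 12 macrophage markers were negative too, with sums of 545 to 1643 CPM and 266 to 724 CPM, and B and plasma cell markers summed to 606 to 3875 CPM and 229 to 1302 CPM. Their part in the members' values was not tested, and in such bulk samples fewer cells of a type and less RNA per cell cannot be told apart.

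In marrow the same members were read unevenly. Of 432 member values 307 were 30 counts or fewer, 8 were 31 to 99 and 117 were 100 or more. H2-K1, H2-D1 and B2m reached 100 counts in all 9 libraries, 9 members did so in none and 17 in exactly 1. Among the 15114 genes tested in adipose, 1.74% reached 100 counts in all 9 marrow libraries and 34.3% in none, against 6.52% and 15.2% of the 46 members tested there. The sums were of the same order as in adipose, 578 to 1755 CPM for the interferon genes and 1892 to 5099 CPM for the class I genes, but different genes carried them in different libraries. Glutamine library 18+20 held the most members at 100 counts, 25 of 48, and it also held the most genes, 7323, while the unnumbered glutamine library held the fewest members, 7.

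**Figure D4:**
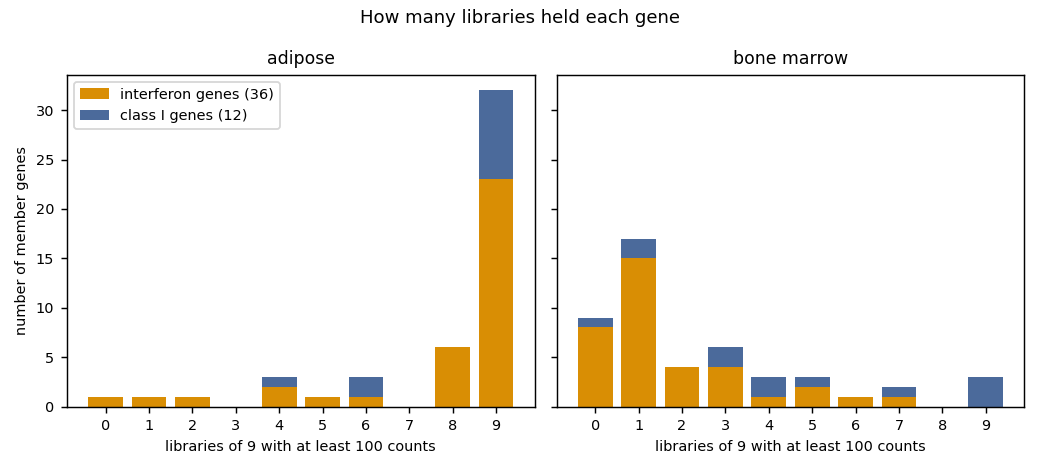
Number of members (stacked bars: 36 interferon genes, 12 class I genes) by the number of libraries, of 9, in which they held at least 100 counts, in adipose and in marrow. Most members sit at 9 libraries in adipose, and in marrow 17 sit at 1 library and 9 at none.

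The second comparison asked the same of glutamine in marrow, again within its own 9 libraries. Only 19 of the 48 members passed the filter. None was called by edgeR, against 8 of 6041 genes (0.132%), and 3 had an unadjusted p under 0.05, against 18.7% of all genes, so that the members' share of 3 in 19 was no higher than the background. DESeq2 called 4 of 19 (Ifih1, Trim25 and Rsad2 higher, Irf9 lower), against 12.0% of all genes, and limma-voom none. With all 18 libraries fitted together 47 members entered and 18 were called, 10 higher and 8 lower, in a fit that called 25.8% of all genes. Of the 19, 6 were positive and 13 negative, with a median of -1.12 against -0.22 for all genes. Without HFD library 23+28 the members' median was -0.20 against 0.13 for all genes.

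Ifih1, which encodes the RNA sensor MDA5, held 9, 6, 5 and 9 counts in the HFD libraries and 128, 10, 6, 3411 and 2461 counts in the glutamine libraries, where 18+20 and 25+27 reached 109 and 80.0 CPM. The arms met at the low end, since 2 glutamine libraries held 10 and 6 counts. The log2 fold change was 6.01 ± 2.69, with an unadjusted p of 0.0256 and an adjusted p of 0.203 in edgeR. Trim25 held 14, 10, 12 and 7 counts with HFD and 2270, 9, 15, 3736 and 11 counts with glutamine, a log2 fold change of 5.80 ± 2.71 with an adjusted p of 0.216 in edgeR. For both, no HFD library and at most 3 glutamine libraries reached 100 counts. All 5 sensors together summed to 0.575 to 0.974 CPM in the HFD libraries and to 1.30 to 280 CPM in the glutamine libraries. In glutamine library 10+12 and the unnumbered one no sensor held more than 15 counts, and in the HFD libraries none more than 14. At that edge the sums are a few counts divided by depth. How often sums of other genes separate in this way was not tested. No single sensor separated the arms. Different genes carried the high sums: Zbp1 and Trim25 in 4+6, Trim25 and Ifih1 in 18+20, and Ifih1 in 25+27.

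Irf9, the DNA-binding subunit of the complex that carries type I interferon signals, ran the other way. It held 33, 11090, 8 and 14355 counts with HFD (0.869, 319, 0.286 and 713 CPM) and 11, 1192, 14, 1974 and 63 counts with glutamine (0.473, 85.3, 0.829, 63.3 and 2.05 CPM). Its log2 fold change was -4.38 ± 2.20, at an unadjusted p of 0.0462 and an adjusted p of 0.255 in edgeR. Without HFD library 23+28 it was -2.17 ± 2.56. The values rested on 2 libraries in each arm.

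Rsad2, which encodes viperin, an antiviral enzyme, was the highest interferon gene of the marrow. Its HFD libraries gave 72.5, 99.9, 0.857 and 1.29 CPM and its glutamine libraries 88.5, 364, 568, 176 and 551 CPM. Glutamine library 4+6 alone lay within the HFD range. The log2 fold change was 3.30 ± 2.24 with an adjusted p of 0.474 in edgeR. Irf1, second of the interferon genes there, gave 68.9, 285, 695 and 1.19 CPM with HFD and 0.904, 2.15, 376, 210 and 1.20 CPM with glutamine, a log2 fold change of -1.37 ± 1.93.

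Gbp7 gave 0.369, 96.1, 0.286 and 0.497 CPM with HFD and 5.81, 0.286, 0.533, 74.6 and 0.325 CPM with glutamine, so that 1 library of each arm stood above the rest. Parp14 gave 337, 0.374, 0.571 and 0.596 CPM with HFD and 0.387, 0.859, 1.84, 177 and 0.325 CPM with glutamine, and again stood high in 1 library of each arm. Slfn5, of a family that binds transfer RNA and restrains viruses, was low in all 9 marrow libraries, with 16, 15, 7 and 11 counts against 3, 5, 3, 13 and 6 counts, and had a log2 fold change of -1.42 ± 0.74 with an adjusted p of 0.285 in edgeR. Arms apart in CPM were found for 1 member, Ifi35, which held 2, 2, 1 and 0 counts with HFD and 3, 3, 1, 859 and 6 counts with glutamine. It did not pass the filter, and every library but 18+20 held 6 counts or fewer. For all genes tested in marrow that share was 3.77%.

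H2-K1, H2-D1 and B2m, the class I chains present in every marrow library, also varied there. B2m gave 1881, 1532, 553 and 2451 CPM with HFD and 1268, 1968, 924, 1910 and 1219 CPM with glutamine, a log2 fold change of -0.89 ± 1.11. H2-D1 gave 371 to 1021 CPM and 240 to 1103 CPM, and H2-K1 176 to 1209 CPM and 128 to 3012 CPM, the last in the unnumbered library. Their arms overlapped throughout. Tapbp gave 12.3, 0.719, 81.7 and 306 CPM with HFD and 186, 2.15, 1.54, 62.9 and 1.27 CPM with glutamine (-2.52 ± 2.29), and Psme1 16.9, 106, 148 and 0.497 CPM against 204, 158, 1.36, 97.6 and 219 CPM (0.19 ± 2.27). Leukocyte markers ran from 299 to 1542 CPM with HFD and from 7.45 to 922 CPM with glutamine in marrow, and their part in these values was not tested.

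The third comparison asked whether the glutamine effect differed between the tissues, as a contrast of both effects in 1 fit of all 18 libraries. Of 47 members tested 12 passed an adjusted p of 0.05 in edgeR, against 1811 of 15203 genes (11.9%). The effect was more positive in adipose for 7 (Ifit1, Mx2, Oasl1, Usp18, Rtp4, Slfn2 and Psmb9) and more negative for 5 (Nlrc5, Ifih1, Zbp1, Ifi35 and Tap2). All 12 adjusted p values lay between 0.0432 and 0.0447. No member was called with scaling by relative log expression, with scaling by the upper quartile or with limma-voom. Nor was any called on leaving out any 1 of the 9 adipose libraries or marrow HFD library 23+28. In these fits 0% of all genes were called too, except 0.0197% with limma-voom. DESeq2 called Nlrc5, Ifih1 and Tap2, which is 6.38% of the members against 6.94% of all genes, so that under DESeq2 the members were called no more often than genes in general.

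The arms of all 12 overlapped in adipose, with log2 fold changes from -1.06 (Nlrc5) to 1.01 (Ifit1). In marrow each of the 7 more positive genes reached 100 counts in 1 library, an HFD one. Mx2, a relative of Mx1, reached 1099 counts in HFD library 1+3 and at most 2 in the other 8. Usp18 reached 7169 counts and Slfn2 6186 counts in the same library, and at most 6 and 7 elsewhere. Ifit1 and Oasl1, the latter related to the Oas synthetases, reached 2333 and 6203 counts in HFD library 14+17 and at most 5 and 6 elsewhere. Rtp4 reached 3655 counts in HFD library 5+11 and at most 12 elsewhere, and Psmb9 445 counts in HFD library 23+28 and at most 1 elsewhere.

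The 5 more negative genes reached 100 counts in marrow glutamine libraries and in no marrow HFD library. Zbp1, a sensor of Z-form nucleic acids, reached 4096 counts in glutamine library 4+6 and at most 9 elsewhere, and Ifi35 reached 859 counts in 18+20 and at most 6 elsewhere. Nlrc5 held 3, 0, 6 and 2 counts with HFD and 2005, 582, 441, 3 and 7 counts with glutamine. Tap2 held 1, 0, 0 and 0 counts with HFD and 1, 150, 0, 118 and 149 counts with glutamine. Nlrc5, Tap2 and Ifih1 are therefore the 3 of the 12 that more than 1 marrow library carried, each with 3 glutamine libraries at 100 counts or more. The fitted differences, such as -9.19 ± 2.32 for Nlrc5, -8.71 ± 2.41 for Tap2, -6.38 ± 1.93 for Ifih1 and 9.97 ± 3.05 for Oasl1 on the log2 scale, depend on the prior count where an arm is near 0 and are no bounds.

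In adipose those 12 genes were read in most libraries. Mx2 gave 4.15, 0, 3.78 and 13.2 CPM with HFD and 16.6, 3.06, 3.24, 7.90 and 15.3 CPM with glutamine. Oasl1 gave 0.796, 5.19, 1.92 and 1.12 CPM with HFD and 0.143, 8.40, 1.81, 2.56 and 3.75 CPM with glutamine. Neither separated the arms. Rtp4, a chaperone of membrane receptors, gave 14.5, 29.2, 37.6 and 19.2 CPM with HFD and 35.7, 14.6, 38.8, 39.7 and 25.7 CPM with glutamine. Slfn2, of the same family as Slfn5, gave 26.5, 14.7, 16.3 and 25.2 CPM with HFD and 22.5, 9.54, 13.2, 20.1 and 12.4 CPM with glutamine. Each of these 4 overlapped widely. Zbp1 gave 6.79, 18.8, 7.42 and 2.20 CPM with HFD and 3.27, 10.6, 6.14, 6.03 and 4.55 CPM with glutamine, with its highest value in HFD library 5+11. Ifi35 held 913, 305, 1217 and 1090 counts with HFD and 966, 1248, 1411, 516 and 563 counts with glutamine. Ifih1 gave 70.4, 30.1, 56.9 and 55.0 CPM with HFD and 57.9, 54.2, 57.5, 68.2 and 70.4 CPM with glutamine. The lowest Ifih1 value was in HFD library 5+11, and the other 8 lay between 54.2 and 70.4 CPM. Tap2 gave 1.39, 0.0836, 3.25 and 8.94 CPM with HFD and 0.0716, 3.73, 3.00, 4.72 and 4.05 CPM with glutamine. Psmb9 gave 4.15, 3.48, 8.42 and 29.3 CPM with HFD and 3.15, 15.4, 5.28, 7.43 and 19.0 CPM with glutamine. HFD library 23+28 was the highest of the 9 for both.

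**Figure D5:**
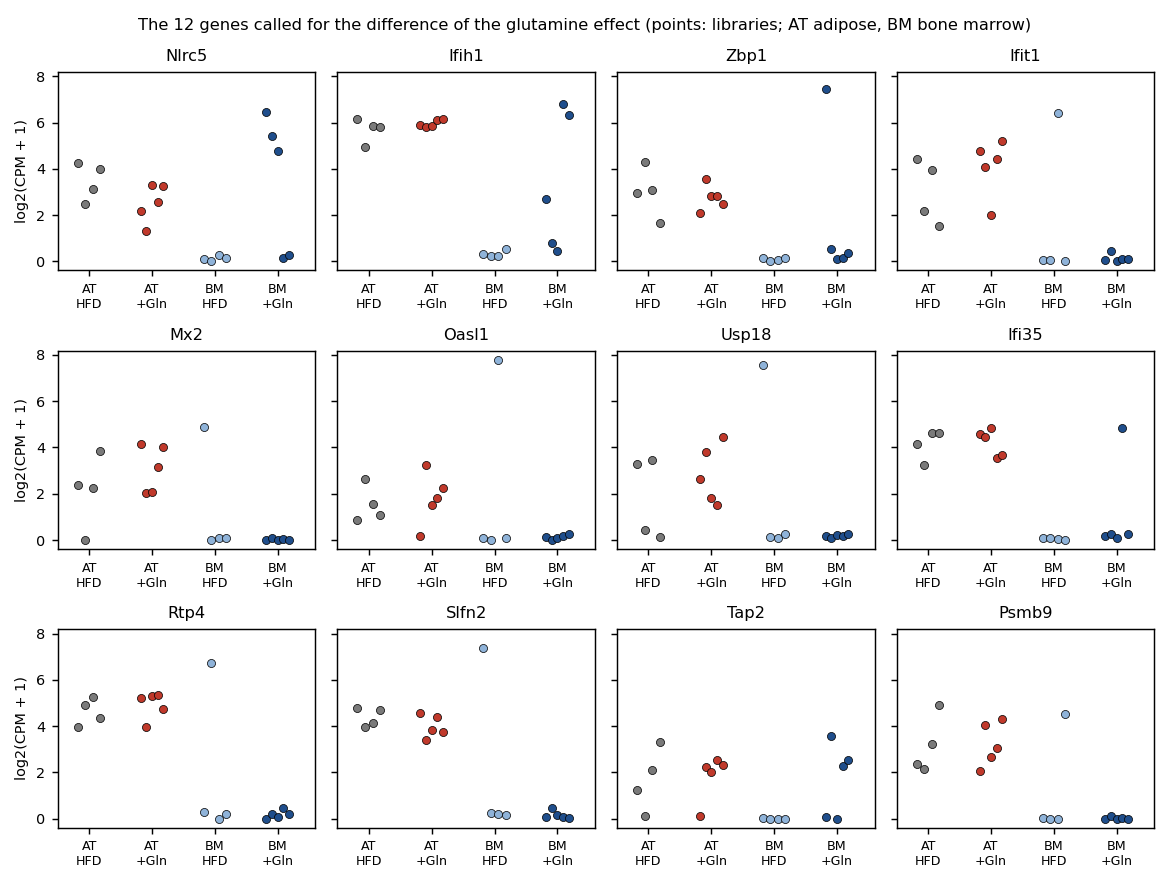
log2(CPM + 1) of the 12 members called for the difference of the glutamine effect, with 1 point per library in the 4 groups (grey and red adipose, light and dark blue marrow). In adipose the arms overlap in all 12 panels, and in marrow 9 of the 12 genes have a single library above the floor while Nlrc5, Ifih1 and Tap2 have 3.

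Levels in the tissues were compared last, as adipose over marrow averaged over the arms in the same fit. Between the tissues 14 of 47 members were called higher in adipose and 4 lower by edgeR, against 40.5% of all genes higher and 11.2% lower, so that the members were called no more often than genes in general. The median of all genes was 1.43 on the log2 scale with the factors used, -1.94 when scaled by relative log expression and -0.89 when scaled by the upper quartile, and the calls followed. Higher against lower, the members split 14 to 4, 5 to 22 and 7 to 16 under these 3, and 5 to 14 with DESeq2. With limma-voom they split 18 to 3 and were called more often than genes in general, 44.7% against 29.4%. With the replicate block they split 20 to 2, 46.8% called against 49.0% of all genes. All genes were called 16.2% higher and 42.9% lower when scaled by relative log expression, 21.2% and 33.8% by the upper quartile, and 14.9% and 27.4% with DESeq2. Values are therefore given relative to the median of all genes.

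6 members kept their call and direction in all 29 alternatives: Slfn5, Oasl2, Ddx58 and Gbp3 above the median in adipose, and H2-D1 and B2m below it. Slfn5 lay 4.94 above the median of all genes, Oasl2 4.52, Ddx58 3.86 and Gbp3 3.22. Slfn5 held 3036 to 5842 counts in each adipose library and 3 to 16 in each marrow library, and Oasl2 441 to 2104 and 1 to 6 counts. Ddx58 reached 25.1 to 70.9 CPM in adipose and at most 4.33 CPM in marrow, and Gbp3 11.7 to 49.5 CPM and at most 5.93 CPM. For these 4 genes no marrow library overlapped an adipose library. Where marrow held only a few counts, the fitted distance depends on the prior count and is no bound. How many of all genes separate in this way, or keep their call in all 29 alternatives, was not tested. Neither result is therefore shown to be unusual. Of all genes tested in adipose, 34.3% were well measured in no marrow library.

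H2-D1 stood at -3.49 and B2m at -3.10 relative to the median of all genes in this contrast. Their CPM ranges overlapped between the tissues. B2m ran from 1423 to 2438 CPM in adipose and from 553 to 2451 CPM in marrow, and H2-D1 from 361 to 615 CPM and from 240 to 1103 CPM. In mean CPM B2m was higher in adipose than in marrow (1799 against 1523), while H2-D1 (523 against 593) and H2-K1 (676 against 795) were lower. The fit used scaling factors of 1.54 to 2.21 in adipose and 0.322 to 0.941 in marrow. It tested against 0 and not against the median, so these calls hold after that scaling. A difference in plain CPM was not tested. H2-K1 at -3.76 and Rsad2 at -4.10 were called as well. Gbp2 (3.84 above), Isg15 (2.38 above), Ifi35 (2.35 above) and Psme2 (2.01 above) were among the other members called higher. Ifih1, Ifit2 and Mx1 changed sign against the median in at least 1 alternative. Markers of other cell types differed between the tissues in the same contrast. Called higher in adipose were 7 of 7 dendritic, 8 of 9 T and NK, 6 of 6 B and plasma, 7 of 12 macrophage, 7 of 7 endothelial and 6 of 6 mesothelial markers tested, and 8 of 8 neutrophil and 5 of 5 osteoblast markers were called lower. Their part in the members' levels was not tested. Tissue and count table go together in this series, so that the tissue and the way each table was made cannot be told apart.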

How the data were processed

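RNA was sequenced as QuantSeq 3′ FWD libraries made from 30 ng of RNA, per the labels' protocols. The values are whole-number read counts per gene as deposited by the authors, in 1 table per tissue, made with FastQC 0.12.1, STAR 2.7.10b, HTSeq 0.11.3 and GRCm38, per the submitters' processing notes. How strand and duplicate reads were handled, and which annotation was used, is not given in the sources used here. Total counts ran from 13970788 to 59529238 per library.

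Each tissue was fitted alone with edgeR 4.0.16 (filterByExpr, TMM factors, quasi-likelihood test, Benjamini-Hochberg adjustment over all genes tested, threshold 0.05) in R 4.3.3, and the difference between tissues and the tissue levels in 1 fit of 18 libraries. A ± after a log2 fold change is its standard error, and elsewhere the SD. Alternatives used limma 3.58.1 (voom with quality weights), DESeq2 1.42.0, other factors and filters, a replicate block and left-out libraries. The scripts were tested on simulated data. Gene positions are from GENCODE M21 (GRCm38).

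The members and lists were chosen with earlier results of these data known. In the tissue that named them, per-library values are printed for members past the adjusted threshold in a glutamine comparison or with arms that do not overlap, and in each role for the 2 smallest p values in adipose, the smallest in marrow and the highest mean CPM in either tissue. Members called for the difference between tissues are given in marrow by counts, those with 1 high library by that count and the highest of the rest. Other members are given by ranges. From each pathway list up to 3 genes with the smallest p in adipose are named. The promoters printed were chosen after values were seen. The marrow column with no matching number was placed by its group name and is called unnumbered.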

Additional observations from a re-analysis of the deposited data

Results flagged for a closer look

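Within a group of 4 or 5 libraries, the gap between the highest or lowest library and its nearest neighbour, as a share of the group's range on the log2(CPM + 1) scale, exceeded Dixon's 95% critical value in 26 of 131 sets examined. Chance marks about 1 in 20 groups. That rate is no yardstick here, since the sets came from 33 members chosen by their values in these same libraries. Some were chosen for a difference that 1 high marrow library carried, and many marrow values rested on a few counts. Of the 26 sets, 22 were in marrow.

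In marrow HFD library 1+3 the share was 0.98 for Mx2, 0.978 for Usp18, 0.982 for Slfn2, 0.973 for Parp14 and 1 for Tap2, the last on a single count. In HFD library 5+11 it was 0.927 for Irf7, 0.965 for Gbp7 and 0.954 for Rtp4. In HFD library 14+17 it was 0.987 for Ifit1 and 0.991 for Oasl1, and in HFD library 23+28 0.992 for Psmb9. These were the high libraries of their groups.

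Among the marrow glutamine libraries, 18+20 stood above the rest for Ddx58 (0.884), Isg15 (0.925), Gbp3 (0.895), Ifi35 (0.958), Parp14 (0.845) and Psme2 (0.978). Library 10+12 stood above for Irf7 (0.916), Ifit1 (0.794) and H2-T23 (1, on a single count), and 4+6 for Zbp1 (0.941). The unnumbered library stood below the rest for Psme1 (0.823).

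In adipose 4 values stood apart. Glutamine library 4+6 was high for Trim25 (0.774) and low for Tap2 (0.787), glutamine library 18+20 was low for Tapbp (0.812), and HFD library 23+28 was low for Xaf1 (0.834).

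The glutamine effect was called different between the tissues for 12 members by the contrast of both effects in edgeR, against 11.9% of all genes. Their adjusted p values ran from 0.0432 to 0.0447 in edgeR. All but Nlrc5, Ifih1 and Tap2 reached 100 counts in 1 marrow library only. The fitted values depend on the prior count where an arm is near 0 and are no bounds. Adipose minus marrow on the log2 scale was 9.302 for Ifit1, 9.344 for Mx2, 9.972 for Oasl1, 9.162 for Usp18, 8.077 for Rtp4, 7.88 for Slfn2 and 8.72 for Psmb9. It was -9.186 for Nlrc5, -6.377 for Ifih1, -9.7 for Zbp1, -6.334 for Ifi35 and -8.71 for Tap2.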

How the results depend on the processing

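The number of members called for glutamine in adipose was 0 in edgeR and 1 with DESeq2. In marrow it was 0 in edgeR, 1 with no count filter (1.10% of all genes called), 4 with DESeq2 (12.0%) and 18 with all libraries fitted together (25.8%). Leaving out 1 library at a time gave 0 to 1 calls in marrow (1 without HFD library 1+3), and the median of the members there ran from -1.39 to -0.20, the last without HFD library 23+28. For the difference between tissues the 12 calls became 0 with relative log expression factors, 0 with upper-quartile factors, 0 with limma-voom and 3 with DESeq2 (6.94% of all genes), and 0 to 16 on leaving out 1 library. With the replicate block 0 were called, and 0% of all genes. The 8 numbered pairs had correlations from -0.00737 to 0.0249, none over 0.1. Of the 8, 4 adipose libraries correlated best, among the marrow libraries, with the one of their own number. These values do not settle whether libraries of the same number share a source, and the labels do not explain the number.

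On leaving out 1 library, the difference between tissues ran from -0.55 (without marrow HFD library 14+17) to 10.98 for Oasl1 and from -0.70 (without HFD library 23+28) to 10.04 for Psmb9, which was -0.83 without that and the unnumbered library, a choice made after the data were seen. Relative to the median of all genes, Ifih1 between tissues was -0.91 with the replicate block, -1.37 in the glutamine arm alone, and -0.023 (without marrow HFD library 5+11) to 1.14 on leaving out 1 library. Ifit2 was -0.30 with upper-quartile factors and -4.00 in the HFD arm alone, and Mx1 -1.07 with limma-voom and -0.62 in the HFD arm alone. For these the cause was not tested. In marrow 307 of 432 member values were 30 counts or fewer. Marrow HFD library 1+3, the deepest of marrow with 37984603 counts, held 14 members at 100 counts. Adipose HFD library 5+11, the shallowest of adipose with 35871168 counts, held 40. The part of total count in this was not tested.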
